A study of Mus musculus with 3 samples.

Results

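RNase P and RNase MRP are ribonucleases built from 1 catalytic RNA each and a largely shared set of proteins. The genes described here are the RNA of RNase P (Rpph1), the RNA of RNase MRP (Rmrp) and 8 protein subunits (Pop1, Pop4, Pop5, Pop7, Rpp21, Rpp30, Rpp38 and Rpp40). They were chosen by gene symbol, with every gene entry of Rmrp kept. This gave 11 gene entries for 10 symbols, 3 of RNA genes and 8 of protein genes, among 55536 annotated genes.

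RNase P removes the 5′ leader of precursor tRNAs, and its RNA holds the active site. RNase MRP is known for a cut in the first internal spacer of the ribosomal RNA precursor, and its RNA resembles that of RNase P. Both RNAs are made by RNA polymerase III from promoters that lie upstream of the gene, while the subunit proteins come from ordinary mRNAs.

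Total RNA depleted of ribosomal RNA was sequenced from the cytosolic fraction of bone marrow-derived macrophages (primary cells) of C57BL/6J mice; age and sex were not collected. All cells had received 100 ng/ml Lipid A (the TLR4-binding moiety of the bacterial outer membrane) for 12 h, had then been washed and kept for 12 h, and had been given 100 ng/ml Lipid A again for 90 min. The 3 libraries form 1 group, are numbered as biological replicates 1 to 3 and carry 1 shared donor record, so the spread covers these samples only. No unexposed cells were analysed here, and the values are levels in twice-exposed cells, with no contrast between conditions.

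The libraries held 40637857, 70407572 and 49678390 counts of annotated genes in replicates 1, 2 and 3. TPM is an abundance corrected for length; a transcript with 1 kb of effective length at 1 TPM corresponded to 62.6, 119 and 88.7 counts. The cells carried the labelled identity: 8 of 8 macrophage markers were detected (at least 1 TPM in all 3 libraries), from Mertk at 36.6 ± 4.62 TPM to Lyz2 at 3262 ± 426 TPM (SD, n = 3). Of the markers of other cells, 2 of 6 for neutrophils were detected (S100a9 highest, at 6.58 ± 1.26 TPM, with Ly6g at 0), and 0 of 5 for T and NK cells, 0 of 3 for B cells, 0 of 4 for erythroid cells and megakaryocytes and 0 of 4 for stromal and endothelial cells.

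The RNA genes are shown first because nearly all reads of the 2 particles came from them. Rpph1 lies on chromosome 14 at chr14:50807449-50807767 (mm10, minus strand) and has a single exon of 319 nt with 67.1% G and C. Its middle coincides with an annotated untranslated exon of Ccnb1ip1 on the same strand, so only the first 35 bases, the last 51 bases and 1 unit of an internal repeat are given. The unit of 21 bases, in capitals, occurs back to back at positions 182 to 202 and 203 to 223, counted from the first base of the RNA. Rmrp lies on chromosome 4 and has 2 overlapping entries on the minus strand: a ribozyme entry of 271 nt (chr4:43492788-43493058) and a lincRNA entry of 281 nt (chr4:43492783-43493063), which runs 5 bases further at each end. In the Rmrp sequence the capitals mark the part that both entries share. All are written 5′ to 3′ in DNA letters from the GENCODE M21 transcripts.
Rpph1 first bases: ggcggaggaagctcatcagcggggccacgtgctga
Rpph1 repeat unit: GCGGATGCCTCCCTCGCCGGA
Rpph1 last bases: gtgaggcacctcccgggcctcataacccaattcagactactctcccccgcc
Rmrp (281 nt entry): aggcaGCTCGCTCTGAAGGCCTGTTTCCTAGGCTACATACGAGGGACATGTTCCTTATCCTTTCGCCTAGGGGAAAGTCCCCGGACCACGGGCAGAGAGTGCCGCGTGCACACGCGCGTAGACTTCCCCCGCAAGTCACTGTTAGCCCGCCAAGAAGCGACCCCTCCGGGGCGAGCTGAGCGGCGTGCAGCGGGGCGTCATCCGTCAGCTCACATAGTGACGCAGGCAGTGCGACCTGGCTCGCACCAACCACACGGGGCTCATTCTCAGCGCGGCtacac

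Both RNA genes stand close to a protein-coding gene on the other strand, and the bases on that side are shown because promoters of this kind hold their elements there. Rpph1 is 73 bases from Parp2, and these bases (chr14:50807768-50807840) are given whole. Upstream of Rmrp, 247 bases before the RefSeq start of Ccdc107 (chr4:43493115-43493361) are given, which lie in an intron of a longer GENCODE transcript of that gene; the 51 bases next to Rmrp were not part of that window. Both stretches come from the RefSeq promoter table for GRCm38.p6 and are written on the strand of the RNA gene. Capitals mark matches to an octamer (ATGCAAAT, or ATTTGCAT on the other strand) and a TATA box (TATAAA, or TTTATA). A GC box (GGGCGG, or CCGCCC) was searched as well; no letters of these 3 motifs overlap in the stretches shown.
Rpph1 upstream: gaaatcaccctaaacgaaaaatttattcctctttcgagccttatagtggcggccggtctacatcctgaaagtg
Rmrp upstream: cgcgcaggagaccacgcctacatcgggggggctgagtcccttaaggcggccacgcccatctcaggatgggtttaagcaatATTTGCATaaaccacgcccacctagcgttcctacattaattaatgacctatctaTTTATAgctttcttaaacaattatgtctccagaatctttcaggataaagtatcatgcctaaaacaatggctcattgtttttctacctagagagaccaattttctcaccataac

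An octamer lay 211 to 218 bases before the longer Rmrp entry and a TATAAA match 159 to 164 bases before it. Both were on the strand opposite to Rmrp and inside the GENCODE locus of Ccdc107, which starts within Rmrp. The bases next to Rmrp that the window left out were not searched, so elements there would be missed. For Rpph1, the octamer lay 93 to 100 bases before the gene, at chr14:50807860-50807867, beyond the stretch shown and within the first exon of Parp2. No TATAAA or GGGCGG match was found on the upstream side of Rpph1 in the window. Over all 32851 promoter entries (250 bases before to 50 after a start), the octamer was present in 1.74%, the TATA box in 13.6% and the GC box in 35.7%. Of the protein subunits, 6 of 8 had an entry: 0 of these held the octamer, 0 the TATA box, and 3 the GC box (Pop5, Pop7 and Rpp40). A match is a description of the letters and not a measured binding site.

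The RNA of RNase P was among the most abundant transcripts of the library. Rpph1 was measured at 21085, 35218 and 45289 TPM in replicates 1, 2 and 3, a mean of 33864 ± 12159 TPM (SD, n = 3), which placed it 4th of all annotated genes. Replicate 1 was the lowest and replicate 3 the highest, 2.15-fold apart. Behind these levels stood 116591, 436463 and 381852 counts, so counting error is small beside the difference between libraries.

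Rmrp was lower than Rpph1 in each library. Its 2 entries summed to 9464, 12001 and 16361 TPM, a mean of 12609 ± 3488 TPM, from 32383, 96796 and 86184 counts. The log2 ratio of Rpph1 to Rmrp on TPM was 1.16, 1.55 and 1.47, a mean of 1.39 ± 0.21, or 2.63-fold. The sign was the same in 3 of 3 libraries; an exact sign-flip test of 3 libraries cannot give a two-sided p below 0.25, so the ratios carry no p-value.

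How Rmrp reads were divided between its entries was unstable, as the plot of count shares shows. The 271 nt ribozyme entry was given 6201, 6548 and 12353 TPM (mean 8367 ± 3456), the 6th highest level of all genes. The 281 nt lincRNA entry was given 3264, 5453 and 4008 TPM (mean 4241 ± 1113), the 10th highest. Replicate 2 was highest for the longer entry but close to replicate 1 for the shorter one.

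The longer entry took 37.3, 48.3 and 26.8% of Rmrp counts in the gene table. In the second transcript table, made from the same libraries, it took 50.5, 90.8 and 51.9%. The means, 37.5 ± 10.8% and 64.4 ± 22.9%, fall on different sides of an even split. The entries differ only by 5 bases at each end, so Rmrp is described below by the sum of both entries.

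**Figure D1:**
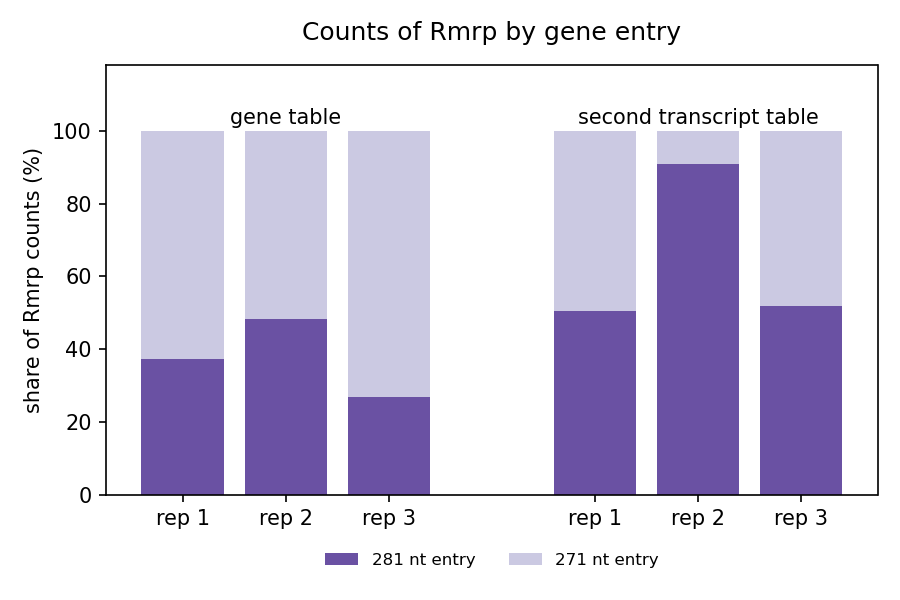
Share of Rmrp counts (%, vertical axis) given to the 281 nt entry (dark) and the 271 nt entry (light) in each library (rep 1 to 3), for the gene table and the second transcript table. The dark part is 26.8 to 48.3% in the gene table and 50.5 to 90.8% in the second table, highest in replicate 2 in both.

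The TPM of both RNAs rest on a strong length correction, because the RNAs are about as long as the library fragments. The labels give a size range of 250 to 400 nt. The deposited effective lengths correspond to a mean fragment shorter than 250 nt that differed between libraries. For the mRNA of Elac1, of 4971 nt, they were 4728, 4748 and 4735 nt in replicates 1, 2 and 3. The effective length of Rpph1 was 88.3, 105 and 95.1 nt in replicates 1, 2 and 3, against its 319 nt. For the 271 nt entry of Rmrp it was 52.3, 64.5 and 57.6 nt. In the second transcript table Rpph1 stood at 9299, 19156 and 18812 TPM and Rmrp at 3421, 5252 and 5513 TPM, so replicate 1 was lowest for both RNAs there too, while replicates 2 and 3 were close to each other.

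Other genes overlap these loci. Rmrp shares 124 exonic bases with Ccdc107 on the opposite strand (5.05, 5.91 and 5.50 TPM), and strand use in counting is not stated. Rpph1 shares 233 of its 319 bases with Ccnb1ip1 exons on the same strand, and that gene was listed at 0, 0.05 and 0 TPM. Parp2, the neighbour of Rpph1 on the other strand and a DNA repair enzyme, was at 9.33, 8.96 and 9.40 TPM (mean 9.23 ± 0.236), with libraries much closer together than those of Rpph1.

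The mRNAs of the 8 protein subunits were far lower per length, as the plot of levels by library shows. Their median was 2.96, 4.60 and 3.96 TPM in replicates 1, 2 and 3 (mean 3.84 ± 0.824), beside a median of 4.87 TPM over the 12256 genes that passed the filter on low counts. All 8 passed that filter. At 1 TPM or more in all libraries, 10 of 11 entries were detected, against 16.7% of all annotated genes and 40.1% of protein-coding genes. The exception was Rpp40, which was below 1 TPM in replicate 1. In the second transcript quantification 7 of 11 entries were detected. There Pop1 and Rpp40 were below 1 TPM in all libraries, and Pop5 (0.983 TPM) and Rpp38 (0.974 TPM) in replicate 1.

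**Figure D2:**
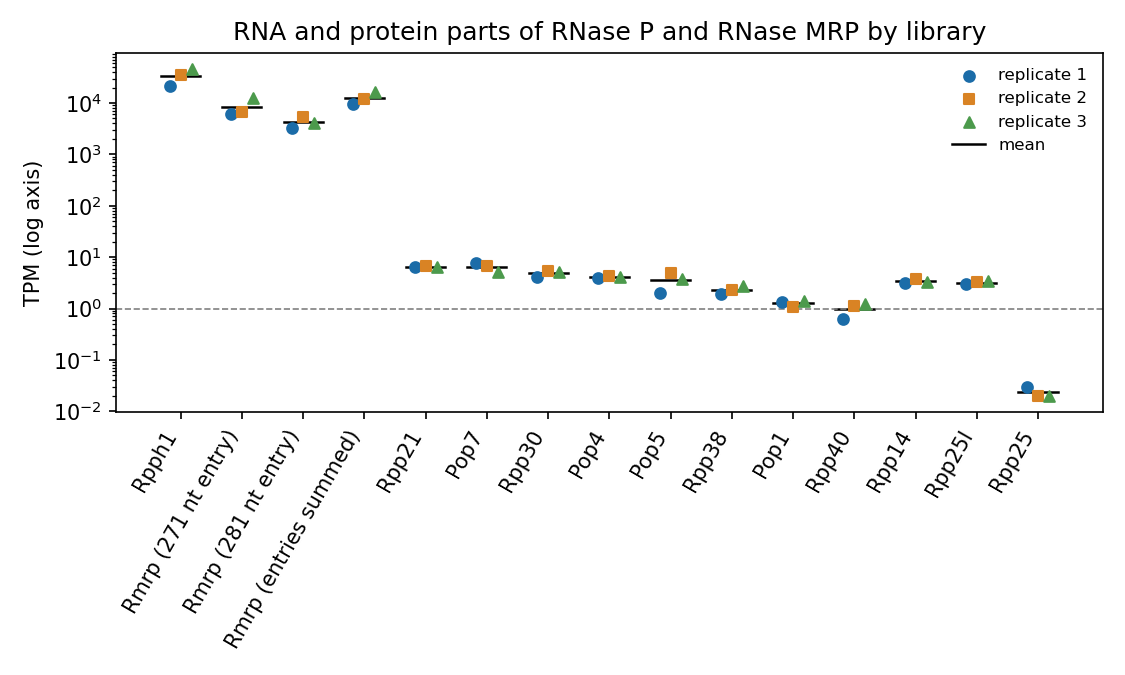
TPM (vertical log axis) of the RNA genes, the 8 protein subunits and 3 further subunits in each library; symbols are libraries, black lines are means and the dashed line is 1 TPM. The RNA genes lie between 3264 and 45289 TPM, and the 8 protein subunits between 0.630 and 7.54 TPM.

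Rpp21, a subunit known from RNase P, was measured at 6.39, 6.84 and 6.43 TPM (mean 6.55 ± 0.249), from 176, 327 and 232 counts. Its libraries lay within 1.07-fold. Pop7, which pairs with Rpp25 to hold a stem of the RNA, was at 7.54, 6.64 and 5.20 TPM (mean 6.46 ± 1.18), from 308, 524 and 304 counts. Unlike both RNAs, Pop7 was highest in replicate 1 and lowest in replicate 3. Pop7 (chr5:137501438-137502518, minus strand) lies inside the Epo locus on the same strand but shares 0 exonic bases with it, and Epo was listed at 0 TPM.

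Rpp30, a subunit with the fold of a barrel-shaped enzyme, was at 4.12, 5.31 and 5.07 TPM (mean 4.83 ± 0.629), from 234, 565 and 385 counts. Pop4, also called Rpp29, which binds the catalytic RNA, was at 3.91, 4.31 and 4.13 TPM (mean 4.12 ± 0.200), from 427, 932 and 666 counts. The highest library exceeded the lowest by 1.10-fold for Pop4 and 1.29-fold for Rpp30. Pop5, a small subunit that acts beside Rpp30, was at 2.02, 4.89 and 3.80 TPM (mean 3.57 ± 1.45), from 58, 194 and 124 counts. Its replicate 1 stood apart from the others, 2.42-fold below the highest library.

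Rpp38, a member of the protein family that binds kink-turns in RNA, was at 1.90, 2.27 and 2.69 TPM (mean 2.29 ± 0.395), from 95, 220 and 192 counts. Pop1, the largest protein of both particles, was at 1.32, 1.08 and 1.42 TPM (mean 1.27 ± 0.175), from 214, 383 and 316 counts. The ranges of these 2 genes over libraries did not overlap. Rpp40 was lowest, at 0.630, 1.14 and 1.23 TPM (mean 1.00 ± 0.324), from 42, 111 and 70 counts.

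In the order Rpp21, Pop7, Rpp30, Pop4, Pop5, Rpp38, Pop1 and Rpp40, each gene's range over libraries overlapped that of the next one, except for Rpp38 and Pop1. Within a library, the order held in 3 of 3 libraries for Pop7 over Rpp30, Rpp30 over Pop4, Pop5 over Rpp38 and Rpp38 over Pop1. It held in 2 of 3 for Rpp21 over Pop7, Pop4 over Pop5 and Pop1 over Rpp40. Of the 8 protein genes, 4 overlap no other annotated gene (Pop1, Rpp21, Rpp30 and Rpp38). Pop5 shares its locus, but 0 exonic bases, with Rnf10 on the opposite strand. Pop4 and Rpp40 share 12 and 80 exonic bases with Gm44767 and Gm48746 on the opposite strand, both listed at 0 TPM.

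Of the further annotated subunits, Rpp14 was at 3.11, 3.69 and 3.32 TPM (mean 3.37 ± 0.294). Rpp25, the partner of Pop7, had 2, 3 and 2 counts and was at 0.03, 0.02 and 0.02 TPM. Its paralog Rpp25l was at 2.95, 3.23 and 3.42 TPM (mean 3.20 ± 0.236). So of these paralogs Rpp25l was within the range of the other subunits and Rpp25 was below detection.

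The excess of RNA over protein mRNA was then taken within each library, as the log2 of the RNA's TPM over the median TPM of the 8 proteins. For Rpph1 it was 12.87, 12.91 and 13.48 (mean 13.09 ± 0.34, or 8698-fold), highest in replicate 3. For Rmrp it was 11.72, 11.35 and 12.01 (mean 11.69 ± 0.33, or 3313-fold). In the plot of RNA relative to protein mRNAs, the libraries of Rpph1 lie above those of Rmrp with no overlap. The libraries are of the cytosolic fraction, so these ratios do not describe whole cells.

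The size of this excess depends on the length correction, and its direction does not. With counts per kilobase of annotated length in place of TPM, the mean log2 ratio was 11.77 ± 0.39 for Rpph1 and 9.93 ± 0.28 for Rmrp. With no length correction it was 10 ± 0.67 and 7.94 ± 0.50. In summed counts, the RNA genes held 148974, 533259 and 468036 and the 8 protein genes 1554, 3256 and 2289, which is 95.9, 164 and 204 times as many (mean log2 7.20 ± 0.56). The RNA genes made up 3.05, 4.72 and 6.17% of all TPM but 0.367, 0.757 and 0.942% of counts.

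The same measure was taken for 3 other particles of a small RNA and proteins. For the signal recognition particle, which targets secreted proteins, the log2 ratio of 7SL RNA to the median of 8 protein mRNAs was 14.98, 14.95 and 15.03. The Rpph1 ratio was lower than this by 2.11, 2.05 and 1.55 on the log2 scale. For the 7SK particle, which holds the elongation factor P-TEFb inactive, the ratio was 11.70, 12.44 and 13.61. The difference of Rpph1 from 7SK was 1.18, 0.46 and -0.13, which changed sign between libraries. This depends on the length correction: the difference was 1.30, 0.69 and 0.08 with counts per kilobase of annotated length and 2.05, 2.13 and 1.39 with no length correction, above 0 in 3 of 3 libraries.

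Rmrp was below the signal recognition particle by this measure in 3 of 3 libraries (mean difference -3.29 ± 0.30), and its difference from 7SK was 0.02, -1.09 and -1.59 (mean -0.89 ± 0.83). Per kilobase of annotated length that difference was -0.34, -1.27 and -1.84, below 0 in 3 of 3 libraries, and with no length correction it was 0.20, -0.04 and -0.76. For the vault, a large hollow particle, the ratio of Vaultrc5 to 3 protein mRNAs was 2.03, 3.05 and 2.57. Rpph1 exceeded it by 10.54 ± 0.59 and Rmrp by 9.15 ± 0.74. Vaultrc5 rested on 19, 68 and 41 counts, and its ratio turned negative without the correction for effective length.

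**Figure D3:**
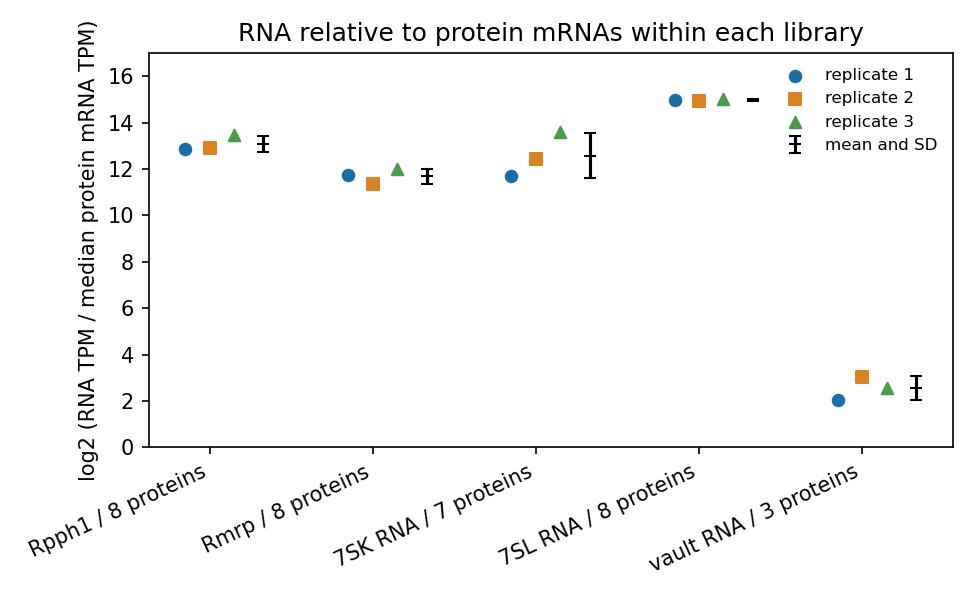
Log2 of RNA TPM over the median TPM of the protein mRNAs of the same particle (vertical axis), per library, with mean and SD (bars at the right of each set). Rpph1 (12.87 to 13.48) lies above Rmrp (11.35 to 12.01), both below 7SL RNA (14.95 to 15.03) and above vault RNA (2.03 to 3.05), and 7SK spans 11.70 to 13.61. Vault RNA, of 143 nt, is shorter than the labelled size range.

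The spread over libraries was compared between the RNA and protein genes. The highest over the lowest library was 2.15 for Rpph1 and 1.73 for Rmrp on TPM, and 2.52 and 2.04 on CPM (counts scaled to a common library size, here with TMM factors). For the 8 proteins the median was 1.37 on TPM and 1.31 on CPM, with a range from 1.07 for Rpp21 to 2.42 for Pop5 on TPM. The protein genes thus enclosed both RNAs on TPM, with Rpp40 at 1.95 (1.41 on CPM). On CPM the highest protein stood at 1.79, below both RNAs. The difference in spread itself was not tested. The median over all genes was 1.26 and 1.23 on these scales. A spread as large as that of Rpph1 was found in 7.01% of genes on TPM and 3.24% on CPM, and one as large as that of Rmrp in 14.6 and 6.66%. In such bulk libraries, fewer cells with an RNA and less RNA per cell cannot be told apart.

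**Figure D4:**
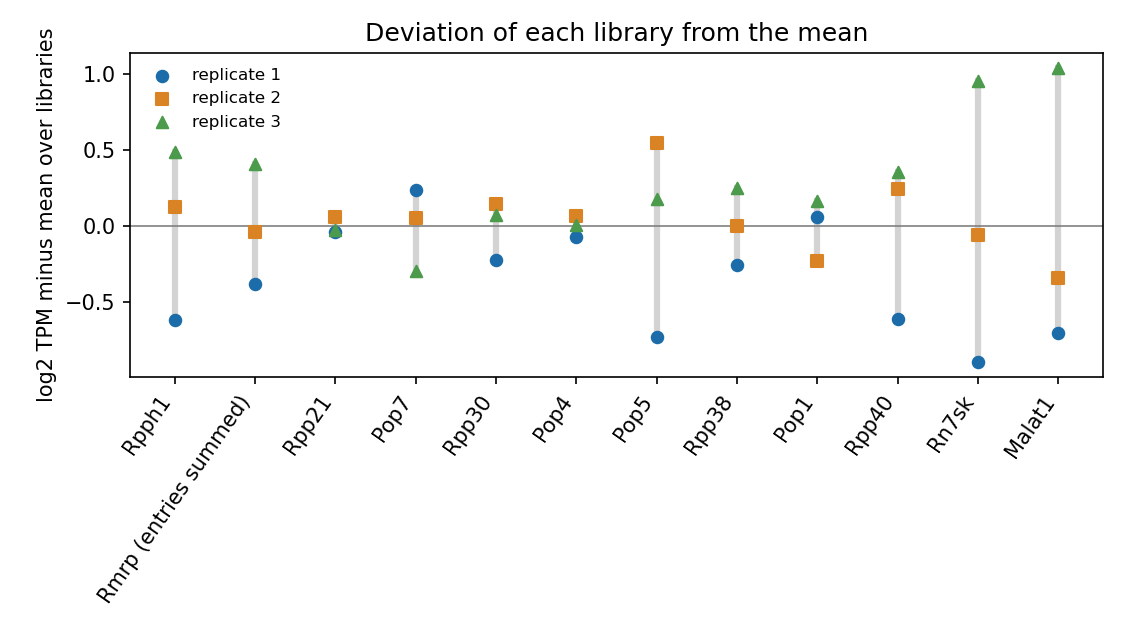
Deviation of each library from the mean over libraries (log2 TPM, vertical axis) for Rpph1, Rmrp, the 8 proteins, Rn7sk and Malat1; grey bars join the lowest and highest library. Rpph1 and Rmrp are lowest in replicate 1 and highest in replicate 3, as are Rn7sk and Malat1, while Pop7 is the reverse.

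Whether a gene varied more than genes of like abundance was tested with edgeR on rounded expected counts, as the residual deviance of each gene, adjusted by Benjamini-Hochberg over 12256 genes. At an adjusted p under 0.05 this called 240 genes, or 1.96%, and 1 of the 11 entries. That entry was the 271 nt entry of Rmrp, with an adjusted p of 0.0411 from edgeR. The call was lost when any 1 library was left out (adjusted p of 0.143, 0.111 and 1.000 without replicates 1, 2 and 3). With both entries of Rmrp counted as 1 feature, the adjusted p was 0.327, and 0 of 10 entries were called beside 1.95% of genes.

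Rpph1 had an adjusted p of 0.0690 from edgeR (unadjusted 0.00148) and was not called. It passed under 3 other settings: 0.000818 with DESeq2's dispersion trend, 0.0352 with upper quartile scaling and 0.0480 without a filter on low counts. Over the 10 settings run, its adjusted p ranged from 0.000818 to 1.000, the highest being without replicate 1. The 281 nt entry of Rmrp had an adjusted p of 0.216, and passed with DESeq2's trend (0.0396) and in the second transcript table (0.00643).

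Counts of called entries moved accordingly: 3 of 11 with DESeq2's trend (1.83% of all genes called), 2 with upper quartile scaling (1.69%), 2 without a filter (1.25%), 2 in the second transcript table (1.72%) and 1 with RLE size factors (1.98%). Those of the second transcript table were the overlapping Rmrp entries, and those with DESeq2's trend included both. These counts thus depend on how reads were divided between the entries. The sum of the entries was tested under 1 setting only. Leaving out replicates 1, 2 and 3 gave 0 each (0.932, 0.828 and 0.654% of genes). None of the 8 protein genes passed under any of the 10 settings. Their lowest adjusted p was 0.977 and their lowest unadjusted p in the edgeR test was 0.233.

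Some RNAs known to reside in the nucleus were, like Rpph1 and Rmrp, lowest in replicate 1 and highest in replicate 3 on gene-level TPM. In the second transcript quantification Rpph1 was instead highest in replicate 2 (9299, 19156 and 18812 TPM). Rmrp kept the order there (3421, 5252 and 5513 TPM). Rn7sk, the 7SK RNA, was at 21186, 37904 and 76327 TPM (edgeR adjusted p = 8.03e-05). Malat1, a long noncoding RNA of nuclear speckles, was at 103, 132 and 345 TPM (edgeR adjusted p = 0.000265). Neat1, the scaffold of paraspeckles, was at 10.1, 10.9 and 23.5 TPM (edgeR adjusted p = 0.000226).

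Of the 9 RNAs on the nuclear list, 3 were detected (Malat1, Neat1 and Dleu2), the summed level of the list was 119, 148 and 375 TPM, and Meg3 was at 0. Dleu2 did not share the order of Rpph1: it was at 4.93, 4.09 and 5.11 TPM, lowest in replicate 2. The part of nuclear RNA in the spread of Rpph1 and Rmrp was not tested. 7SL RNA, by contrast, made up 60.4, 60.6 and 56.4% of all TPM. In counts it held 2769836 of 40637857, 6327493 of 70407572 and 3981542 of 49678390, a far smaller share. On CPM it was at 71413, 87332 and 78846, lowest in replicate 1 and highest in replicate 2. The order of libraries that Rpph1 showed on gene-level TPM was shared by 1191 tested genes (9.72%) and by 2 of the 8 proteins (Rpp38 and Rpp40). Rpp40 was highest in replicate 2 on CPM (1.08, 1.53 and 1.39) and in the second transcript quantification (0.316, 0.663 and 0.573 TPM). In replicate 3, 56.1% of its gene-level TPM lay in Rpp40-203, a transcript of 276 nt with 3.73 counts. Rpp38 kept the order on both.

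Genes whose pattern over the 3 libraries was most like that of each RNA were ranked among 3766 genes of at least 10 TPM in every library, by the root mean square distance of centred log2 TPM. For Rpph1 these were the snoRNA Gm23262 (64.4, 108 and 132 TPM, distance 0.0305), the snRNA Gm24305 (28.7, 44.3 and 59.4 TPM, 0.0458) and mt-Cytb (80.1, 125 and 159 TPM, 0.0497). For Rmrp they were Itgal (18.5, 23.5 and 33.2 TPM, distance 0.0242), the pseudogene Gm28661 (337, 408 and 565 TPM, 0.0289) and the snRNA Gm24950 (139, 166 and 226 TPM, 0.0423). Within a distance of 0.1 lay 6 genes for Rpph1 and 15 for Rmrp. The ranking rests on gene-level TPM, and genes were kept by TPM. For short RNAs such a level can stand on few counts, as with Vaultrc5 (157 TPM from 19 counts in replicate 1).

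Not all of the level of the protein genes lay in protein-coding transcripts. The share of a gene's TPM in such transcripts was 100.0% for Pop7, Rpp38 and Rpp40, 94.8 ± 3.77% for Rpp30, 93.8 ± 2.83% for Pop4 and 87.4 ± 9.34% for Pop1. For Rpp21 it was 98.3, 75.8 and 79.6%. There a transcript with a retained intron, Rpp21-205, was listed at 0 TPM in replicate 1 and at 1.56 and 1.22 TPM in replicates 2 and 3. In the second transcript table the share in protein-coding transcripts was 100.0% for Pop1 and 88.9 ± 1.12% for Pop4. Of the counts of Pop1, 98.5 ± 0.943% lay in such transcripts. Its retained-intron transcript Pop1-205 held 3.86, 0 and 6.95 counts in replicates 1, 2 and 3.

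Pop5 was the exception: its single protein-coding transcript held 31.3, 11.6 and 17.8% of the gene's TPM (mean 20.3 ± 10.1%), and 25.9 ± 11.5% in the second transcript table. Its share of the gene's counts was larger, at 53.3, 28.1 and 38.2% (mean 39.9 ± 12.7%). That transcript, Pop5-201, was at 0.630, 0.570 and 0.680 TPM, with libraries within 1.19-fold. The processed transcript Pop5-204 of 428 nt was at 0.19, 2.55 and 1.52 TPM, and Pop5-202 of 575 nt at 1.01, 1.58 and 1.59 TPM. The plot of Pop5 transcripts shows that the low level of the gene in replicate 1 lay in these noncoding transcripts.

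**Figure D5:**
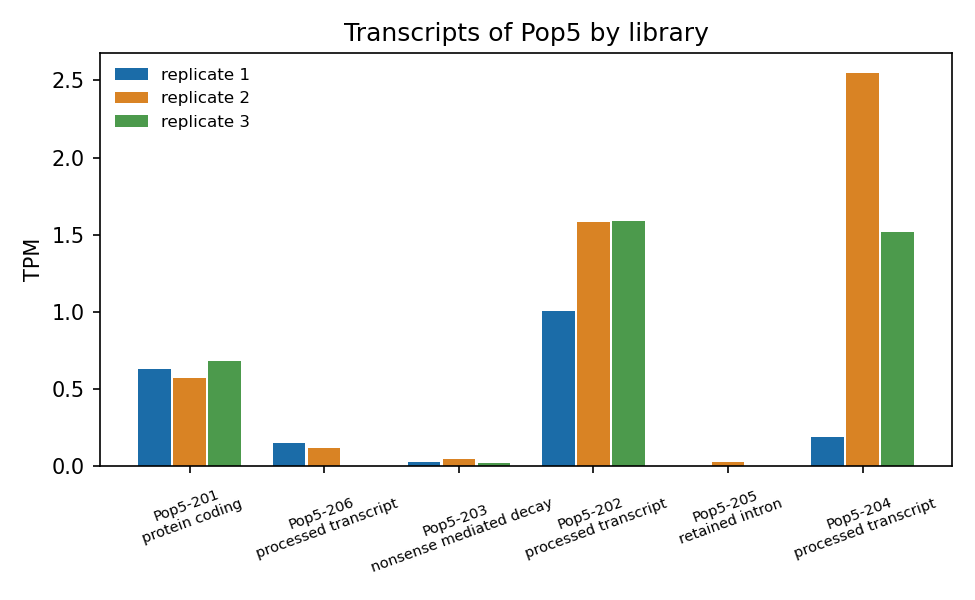
TPM (vertical axis) of the 6 annotated transcripts of Pop5 in each library. Pop5-201 is between 0.570 and 0.680 TPM in all libraries, and Pop5-204 is at 0.19 TPM in replicate 1 against 2.55 and 1.52 TPM in replicates 2 and 3.

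The division rests on few bases and few counts. Only 16 bases of Pop5-204 and 0 of Pop5-202 lie outside the exons of Pop5-201, and Pop5-204 was assigned 2.27, 62.5 and 26.2 counts. With the proteins measured by their protein-coding transcripts alone, the log2 ratio of RNA to proteins was 13.42 ± 0.39 for Rpph1 and 12.02 ± 0.24 for Rmrp, each within 1 SD of the value from whole genes.

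The genes that act before, beside or after the 2 ribonucleases were almost all detected: 51 of 53 in 6 lists, against 40.1% of all protein-coding genes. The edgeR test called 0 of the 53 variable, beside 1.96% of all tested genes, a share near the background for a set of this size. DESeq2's trend called 0 as well, and 0 had an unadjusted p under 0.05, beside 6.88% of all tested genes. Mitochondrial RNase P, which works without an RNA, had 3 of 3 annotated subunits detected: Hsd17b10 at 14.5 ± 2.21 TPM, Trmt10c at 2.19 ± 0.401 TPM and the nuclease subunit Prorp, annotated as 1110008L16Rik, at 2.19 ± 0.172 TPM. The median of this list, 2.19 TPM, was below that of the 8 protein subunits.

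Factors of the tRNA 3′ end were detected in 4 of 4 cases (median 7.23 TPM), from Elac1, a tRNA 3′ endonuclease, at 1.22 ± 0.125 TPM to Ssb, the La protein that binds new polymerase III transcripts, at 31.0 ± 0.953 TPM. Genes of tRNA splicing were detected in 9 of 10 cases (median 7.97 TPM), with Rtraf, a subunit of the tRNA ligase complex, highest at 40.2 ± 3.45 TPM. Genes of ribosomal RNA maturation were detected in 12 of 12 cases (median 6.97 TPM), from Wdr12 at 1.67 ± 0.337 TPM to Npm1 at 70.3 ± 10.9 TPM. Each of these medians lay above the 4.87 TPM of all tested genes.

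For transcription of Rpph1 and Rmrp, 13 of 14 genes of RNA polymerase III and its repressor Maf1 were detected (median 5.35 TPM), from Polr3g at 0.50 ± 0.208 TPM to Polr1d, a subunit shared with polymerase I, at 26.1 ± 0.952 TPM. The factors of the upstream type of promoter were detected in 10 of 10 cases (median 2.76 TPM), from Snapc1 at 1.24 ± 0.126 TPM to Snapc5 at 15.7 ± 1.32 TPM. None of these genes is thereby shown to act on Rpph1 or Rmrp in these cells.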

How the data were processed

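Expected counts, TPM and transcript percentages (the share of a gene's TPM) were used as deposited by the authors for 3 libraries, on mm10 with GENCODE M21 per the deposited notes. Per the same notes, a first transcript table and the gene table rest on alignments to the transcriptome, and a second transcript table on the reads; for programs and strand use the sources used here give nothing. TPM are corrected for effective length by the authors. Features that are not annotated genes (phiX at 0.227, 0.110 and 0.0959% of counts, and tRNA features) stayed out of library sizes. Levels are mean TPM ± SD; ratios were taken within libraries without a pseudocount. Variability was tested with edgeR 4.0.16 in R 4.3.3 (counts rounded, TMM, filterByExpr, trended dispersion, residual deviance against chi-square, Benjamini-Hochberg, threshold 0.05). DESeq2 1.42.0 served as an alternative. The test was also run on counts simulated from the same fitted dispersion trend, which cannot show how it behaves on real counts. Python 3.11.15 was used for the rest. Promoter letters came from RefSeq GRCm38.p6.

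Members and lists were chosen with earlier results of these data known. Genes named were all members and their neighbours, the highest and lowest of each list (1 such gene is not reported here) and the 3 nearest patterns; overlapping genes, Neat1 and single transcripts were named after their values were seen. Protein-coding transcripts alone, summed Rmrp entries and levels with a library left out were alternatives chosen after seeing the data. No value columns of other samples were present.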

Additional observations from a re-analysis of the deposited data

How the results depend on the processing

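The values describe 3 libraries that share 1 donor record, and no paired analysis was possible because they form 1 group. TPM of RNAs near the insert length rest on the effective length each program assumes. Protein subunits had 42 to 932 counts in a library, which limits their order and spread, while each RNA entry had 12093 or more.

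The log2 ratio of Rpph1 to the proteins (13.09) was 11.77 with counts per kilobase of annotated length, 10 with no length correction and 12.73 with a pseudocount of 1 TPM. That of Rmrp (11.69) was 9.93, 7.94 and 11.34 under these settings, 11.23 in the second transcript table and 11.06 with its highest entry alone. Rpph1 relative to Rmrp (1.39) was 1.84 per kilobase, 2.06 with no length correction, 1.69 in the second table and 2.02 against the highest entry alone. The signal recognition particle (14.99) gave 13.35, 10.63, 14.91 with the pseudocount and 14.60 in the second table, and 7SK (12.58) gave 11.08 and 8.14 with the changed length corrections. The vault (2.55) gave 0.54 in the second table and reversed to -3.39 per kilobase and -7.96 with no length correction.

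Rescaling TPM over nuclear protein-coding genes multiplied all levels by 3.02, 3.38 and 3.58 in replicates 1, 2 and 3 (log2 shifts of 1.59, 1.76 and 1.84). Levels were then 114917 TPM for Rpph1, 42558 for Rmrp and 12.9 for the median protein, and they were 15756, 4729 and 2.03 TPM by the second transcript quantification. The spread was 2.52 for Rpph1 and 2.04 for Rmrp on CPM, and 2.55 and 2.05 on rescaled TPM. It was 2.06 and 1.61 by the second transcript quantification. The highest protein was below both RNAs on CPM (1.79). It was above both on rescaled TPM (2.72) and by the second transcript quantification (2.68). At a threshold of 5 TPM, 5 of 11 entries and 24 of the 53 pathway genes were detected. At 1 TPM in the second transcript quantification, 7 of 11 entries and 41 of the 53 pathway genes were detected. Leaving out 1 library at a time gave 82 to 119 variable genes in place of 240; the cause was not tested, and the fits then had 2 libraries. For these results, 64 alternative values kept their direction and moved by less than 1 SD, or by less than 1.5 times for counts. A further 34 were counted as moved and 2 as reversed. The detection counts of the second transcript quantification are among the 64. Leaving out 1 library cannot move the mean of 3 libraries by 1 SD. Such alternatives of ratios, levels and transcript shares could therefore not count as moved, and they show nothing about stability.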

Other observations

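The annotation holds 20 ribozyme genes besides Rpph1 and Rmrp, among them Rprl1, Rprl2 and Rprl3, which are named for their likeness to the RNase P RNA. By the gene-level counts, 19 of the 20 had 0 counts in every library, and the largest count of any was 1. Of the 20, 14 had 0 estimated counts by the second transcript quantification, where the largest was 3. A count of 0 allows up to 3 counts in a library, a limit that covers counting error only. The substrates of RNase P could not be described: the 26248 tRNA features of the gene table held 0, 1 and 0 counts in replicates 1, 2 and 3.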
